A study of Mus musculus with 6 samples.

Results

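The granzymes and mast cell proteases are related serine proteases that blood cells store in secretory granules. The members examined here were 10 genes, 7 granzymes (*Gzma* to *Gzmg*) and 3 entries named as mast cell proteases (*Mcpt1*, *Mcpt8* and *Mcptl*), represented by 12 of the 45281 probes of an Illumina mouse bead array. They were picked from the difference between PTH and control arrays, because several of them were strongly higher with PTH, so that difference is given for them as a description without a test. The arrays measured RNA of *ex vivo* cortical bone tubes, the shafts of tibia and femur of C57BL6 mice aged 3 months by the labels. Marrow was flushed out and surface cells were digested, and by the paper the tubes hold predominantly osteocytes in their mineralized matrix. Blood cell transcripts were still measured, as given below. Tubes were kept in medium with serum overnight and then for 24 hours without PTH (control, 3 arrays) or with PTH 1-34 at 250 nM (PTH, 3 arrays). The labels give no genotype that differs between the groups. Each preparation pooled about 10 bones from 4 to 5 mice, so an array is a pool and not an animal.

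Granzymes are made mainly by cytotoxic T cells and natural killer (NK) cells, which release them together with perforin into target cells. Mast cell proteases are chymases and related enzymes of mast cells, and *Mcpt8* is best known as a marker of basophils. In the mouse most of these genes lie side by side on chromosome 14 and arose by repeated duplication, while *Gzma* lies elsewhere. Inhibitory serpins and cathepsin C, which removes the activation peptide of granzymes, control the activity of the stored enzymes.

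The duplication is visible in the sequence upstream of the genes. Promoter entries of RefSeq (build GRCm38.p6) were found for 9 of the 10 members, and *Mcptl* was not matched. The 250 bases before the start of *Gzmc*, *Gzmd*, *Gzme*, *Gzmf* and *Gzmg* shared between 76.4% and 95.2% of their bases in the 10 pairwise alignments, with *Gzmd* and *Gzme* the closest pair. *Mcpt1* shared 83.6% with *Mcpt4*, a mast cell protease gene nearby. Among the 80 other pairs of the 14 promoters compared, the share lay between 3.6% and 14.8%.

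**Figure D1:**
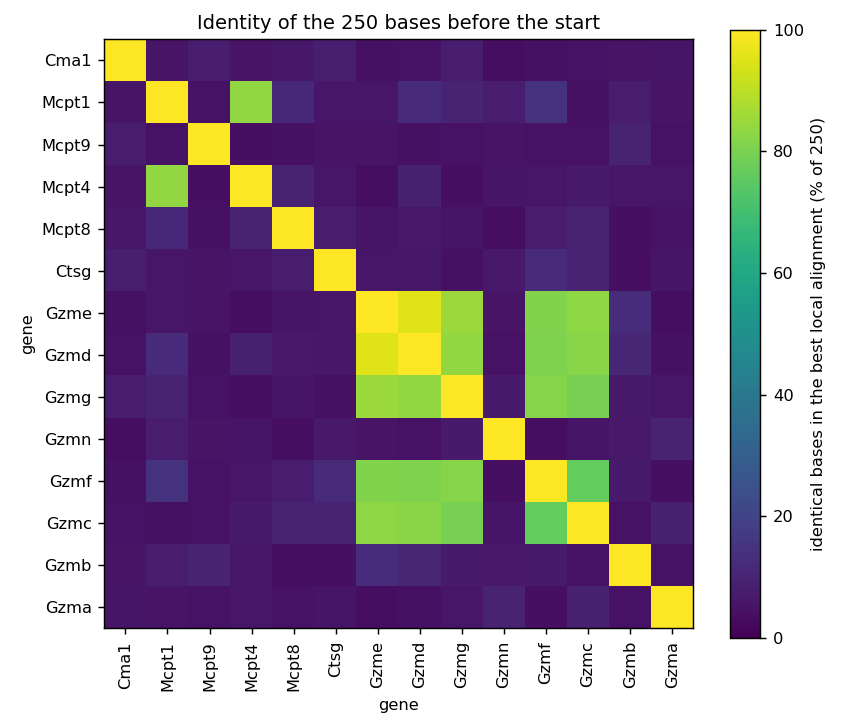
Identical bases in the best local alignment of the 250 bases before the start of each gene, as a percentage of 250, for 14 genes, in the order of chromosome 14 with *Gzma* last. *Gzmc*, *Gzmd*, *Gzme*, *Gzmf* and *Gzmg* share 76.4% or more, with the unlike *Gzmn* among them, and *Mcpt1* and *Mcpt4* form a separate pair at 83.6%.

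A stretch of 88 bases is shown for the 5 similar granzyme promoters because PTH acts largely through cAMP, and the palindrome TGACGTCA is the cAMP response element, the binding site of CREB family factors. Capitals mark this octamer or the octamer at the same place.
*Gzmd* (chr14:56132607-56132694, minus strand): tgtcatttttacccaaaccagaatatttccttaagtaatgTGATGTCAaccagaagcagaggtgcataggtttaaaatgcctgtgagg
*Gzme* (chr14:56120640-56120727, minus strand): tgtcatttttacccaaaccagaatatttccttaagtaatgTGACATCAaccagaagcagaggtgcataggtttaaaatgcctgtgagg
*Gzmg* (chr14:56159609-56159696, minus strand): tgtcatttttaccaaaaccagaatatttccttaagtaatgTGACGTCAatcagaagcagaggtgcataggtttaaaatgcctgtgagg
*Gzmf* (chr14:56211442-56211529, minus strand): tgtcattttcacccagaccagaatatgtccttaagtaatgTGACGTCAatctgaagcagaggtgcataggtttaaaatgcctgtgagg
*Gzmc* (chr14:56234667-56234754, minus strand): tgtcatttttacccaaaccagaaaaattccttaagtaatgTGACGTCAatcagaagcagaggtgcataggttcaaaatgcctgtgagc
*Gzmg*, *Gzmf* and *Gzmc* held the full element, while *Gzmd* and *Gzme* each differed from it at 1 base. Counted from 1 at the 5′ end of the octamer, the change from the full element was C4T in *Gzmd* and G5A in *Gzme*. Both changes give the same sequence read on opposite strands, TGATGTCA on one and TGACATCA on the other. Within the 88 bases *Gzmd* and *Gzme* differed at 2 positions, and *Gzmd* and *Gzmg* at 3. Of 32851 promoters of this length, 1.55% held the full element on either strand and 2.93% held the octamer of *Gzmd* and *Gzme*. *Gzma*, *Gzmb* and *Mcpt8* held neither in the 250 bases before their start.

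*Mcpt1* held the shorter core CGTCA, which 17.8% of promoters of this length held on either strand, and *Mcpt4* did not. On the opposite strand this core is read as TGACG. The core is part of the full element, so promoters with the full element are included in this share. Among the other matched members, *Gzmg*, *Gzmf* and *Gzmc* held it through the full element, while *Gzma*, *Gzmb*, *Gzmd*, *Gzme* and *Mcpt8* did not hold it. The aligned stretches are shown because these nearby genes have similar promoters and differed in detection, with capitals at the core and at the bases aligned with it.
*Mcpt1* (chr14:56017749-56017833, plus strand): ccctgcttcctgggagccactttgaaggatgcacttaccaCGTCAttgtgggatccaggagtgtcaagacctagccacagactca
*Mcpt4* (chr14:56062444-56062528, minus strand): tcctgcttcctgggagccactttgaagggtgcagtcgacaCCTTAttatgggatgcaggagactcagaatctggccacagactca
Counted from 1 at the 5′ end of the core of *Mcpt1*, the changes in *Mcpt4* were G2C and C4T. The core of the RUNX factors, ACCACA or its complement TGTGGT, was present in all 9 matched member promoters and in 14% of promoters of this length. The 5 similar granzyme promoters are among the 9 and are not independent, and *Mcpt4* and *Ctsg*, which are no members, held it too. The GATA core, GATAA or its complement TTATC, was found in *Mcpt1*, *Gzme*, *Gzmf* and *Gzmg* and in 22.6% of promoters. Outside the members *Mcpt4* and *Cma1* held it too. These matches describe letters in the promoters, and binding was not measured.

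Of all probes, between 34.2% and 38.4% were above background on each array, which means a detection p under 0.05 against the negative controls of that array. Values are given as normalized log2 signal after background correction and quantile normalization (limma's neqc). Probes that passed this detection threshold on 3 or more of the 6 arrays were compared, 16214 in all. Of the 12 member probes 7 qualified, which represent 5 genes, *Gzmd*, *Gzme*, *Mcpt1*, *Mcpt8* and *Mcptl*. *Mcpt1* qualified through the PTH arrays alone and *Mcptl* mainly through them, so a difference was built into their selection.

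*Gzmd*, granzyme D, showed the largest difference. Its brighter probe (ILMN_2987649) had a normalized log2 signal of 8.44, 8.38 and 8.33 in control tubes, which became 11.00, 10.77 and 10.67 with PTH. The PTH arrays lay far above the control arrays with no overlap, and the spread within each group was small. The group means were 8.38 ± 0.06 (SD, n = 3) and 10.81 ± 0.17 (SD, n = 3), a log2 difference of 2.43 (SE 0.13) or 5.40-fold. In the deposited linear signal this probe read 378, 436 and 416 in control tubes and 1811, 1905 and 2411 with PTH. The dimmer probe (ILMN_2678281) read 6.37, 6.80 and 6.24 without PTH, against 8.68, 8.71 and 8.45 with it, on the normalized log2 scale. Its log2 difference was 2.14 (SE 0.17), so both probes of the gene moved alike. Among the 16214 tested probes these were the first and the second largest rises on this scale. The members were picked for such rises, so nothing is read from the ranks. Without background correction the dimmer probe differed by 1.40, less than *Il1rl1*, described below, at 1.57.

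*Gzme*, granzyme E, is the neighbour of *Gzmd* and has the most similar promoter. The probe ILMN_2642942 had a normalized log2 signal of 9.04, 8.83 and 9.16 in control tubes and 10.44, 10.30 and 10.77 with PTH. The log2 difference was 1.49 (SE 0.17) or 2.81-fold. The probe ILMN_1224204 read 8.64, 8.58 and 8.70 in control tubes and 10.11, 9.92 and 10.03 with PTH, with a log2 difference of 1.38 (SE 0.12) or 2.61-fold. Again no PTH array overlapped a control array, and both probes gave a difference smaller than that of *Gzmd*. Both granzymes were above background on all 6 arrays, so their transcripts, or closely related ones that reach these probes, were measured in control tubes too. No probe sequence was examined, so signal shared between *Gzmd* and *Gzme* cannot be told apart.

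*Mcpt1*, the chymase mouse mast cell protease 1, was detected on all 3 PTH arrays and on none of the controls. Its normalized log2 signal was 4.84, 4.53 and 4.82 without PTH, against 6.98, 6.72 and 6.77 with it. The control values lay at the background, so only a bound is given, at least 3.43-fold higher with PTH, which holds for the neqc values alone. For this bound each control array was set to its dimmest detected probe, or to the signal of *Mcpt1* itself where that was higher, and the mean compared with the PTH mean. With an offset of 50 the measured log2 difference was 1.28, and without background correction 0.84, both smaller than this bound. In the deposited linear signal the probe (ILMN_1258979) read 120, 120 and 114 in control tubes and 192, 198 and 255 with PTH. The dimmest detected probes of the arrays lay between 119 and 139 on this scale.

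*Mcpt8*, mouse mast cell protease 8, had a normalized log2 signal of 7.28, 7.51 and 7.32 in control tubes and 8.76, 8.64 and 8.77 with PTH. The groups did not overlap, and the log2 difference was 1.35 (SE 0.13) or 2.55-fold. The gene was above background on all 6 arrays. *Mcptl*, listed as a mast cell protease-like entry, read 4.81, 5.09 and 4.74 in control tubes and 6.31, 6.16 and 6.05 with PTH. Control replicate 2 and all 3 PTH arrays detected it, with a log2 difference of 1.29 (SE 0.14). Its size is uncertain because most control values lay at the background. The symbol *Mcptl* had no match among the RefSeq names. Without its probe sequence, signal shared with other members cannot be told apart.

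The other 5 members could not be compared. *Gzma*, *Gzmb*, *Gzmc* and *Gzmf* were above background on none of the 6 arrays, and *Gzmg* only on PTH replicate 3. *Gzmb*, the granzyme most used as a marker of cytotoxic cells, had a normalized log2 signal between 4.31 and 4.61 in control tubes and between 4.34 and 4.47 with PTH. *Gzma*, the other granzyme common to cytotoxic cells, lay between 4.37 and 4.76 in control tubes and between 4.47 and 4.58 with PTH. The groups of both genes overlapped. *Gzmc* lay between 4.25 and 4.35 and between 4.27 and 4.34, and *Gzmf* between 4.32 and 4.45 and between 4.38 and 4.44, in control tubes and with PTH. *Gzmg* read 4.50, 4.68 and 4.47 in control tubes and 4.40, 4.46 and 5.01 with PTH. At the sensitivity of these probes a difference was not detectable for the 5 genes. *Gzmc*, *Gzmf* and *Gzmg*, whose promoter stretches hold the full cAMP response element, were among the genes not compared. No difference with PTH can therefore be set beside that element. Of the matched members that were compared, *Mcpt1* held the shorter core CGTCA, and *Gzmd*, *Gzme* and *Mcpt8* did not. A link of the octamers or of the shorter core to the differences was not tested.

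**Figure D2:**
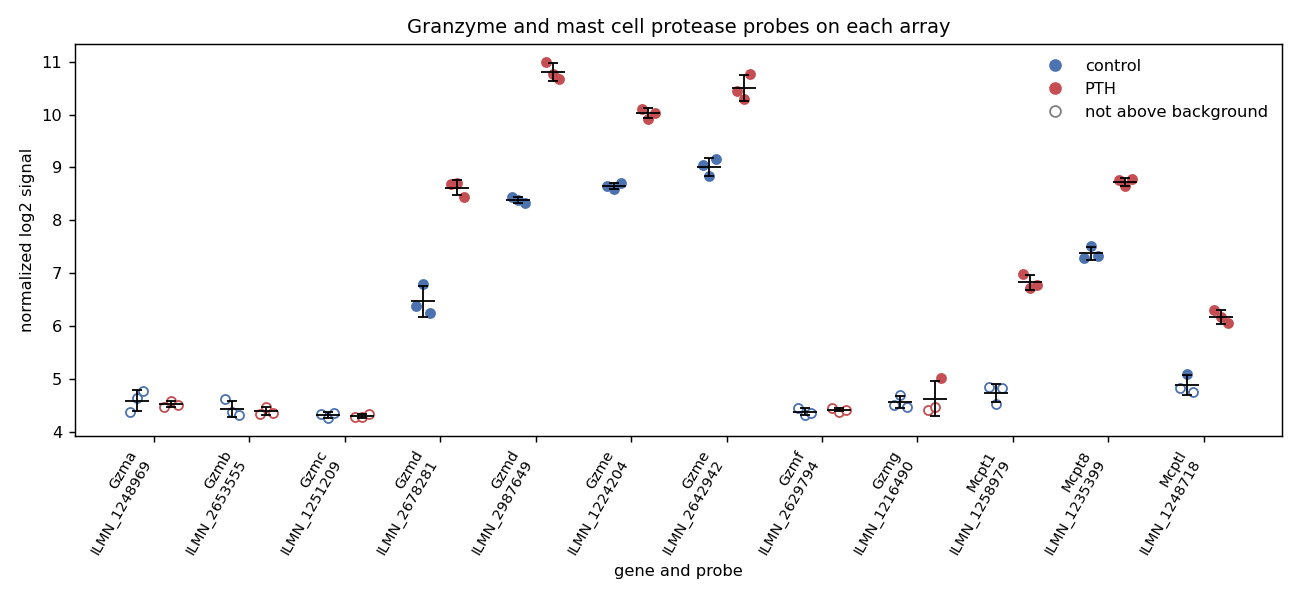
Normalized log2 signal of each of the 12 member probes on the 3 control and 3 PTH arrays. Bars give the mean and SD of a group, and open circles mark arrays where the probe was not above background. The 7 probes of *Gzmd*, *Gzme*, *Mcpt1*, *Mcpt8* and *Mcptl* have every PTH array above every control array, and the other 5 probes lie at the background except *Gzmg* on PTH replicate 3.

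All 7 tested member probes had every PTH array above every control array, and so did 10.3% of all tested probes. The members were selected on this contrast, so nothing is read from that count. The median difference of all tested probes was 0.00 on the log2 scale. Among the PTH arrays, replicate 1 gave the highest value for 4 of the 7 probes, replicate 2 for 1 and replicate 3 for 2. Leaving out each array in turn gave a log2 difference between 2.34 and 2.50 for the brighter probe of *Gzmd* and between 1.31 and 1.42 for *Mcpt8*. The size for dim probes depended on the background correction. Without it the log2 difference was 0.84 for *Mcpt1*, 0.46 for *Mcptl* and 1.40 for the dimmer probe of *Gzmd*, against 2.14 for its brighter probe.

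**Figure D3:**
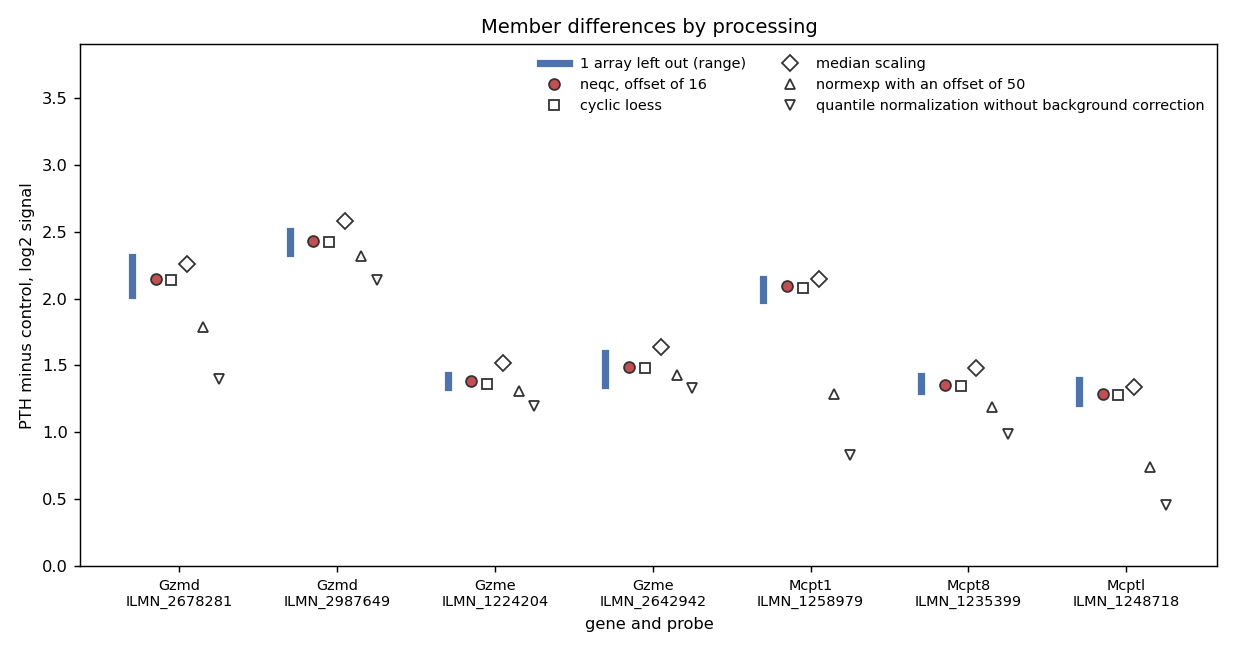
Log2 difference, PTH minus control, of the 7 tested member probes under neqc, the other normalizations and background corrections, and with 1 array left out (range as a bar). Values of *Mcpt1* are measured against control signals at the background, and those of *Mcpt1*, *Mcptl* and the dimmer probe of *Gzmd* are smallest without background correction, at 0.84, 0.46 and 1.40.

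The question whether the difference followed the position of the genes was examined along chromosome 14. From *Mcpt1* to *Gzmb* the RefSeq gene order (GRCm38.p6) holds 13 named genes, 8 of them members. In order these are *Mcpt1*, *Mcpt2*, *Mcpt9*, *Mcpt4*, *Mcpt8*, *Ctsg*, *Gzme*, *Gzmd*, *Gzmg*, *Gzmn*, *Gzmf*, *Gzmc* and *Gzmb*. The genes higher with PTH were not a continuous run. *Mcpt2*, *Mcpt9* and *Mcpt4*, between *Mcpt1* and *Mcpt8*, were above background on no array. *Ctsg*, cathepsin G, a granule protease of neutrophils that lies between *Mcpt8* and *Gzme*, fell with PTH. Its normalized log2 signal was 9.31, 9.39 and 9.41 in control tubes and 8.35, 8.42 and 8.29 with PTH, without overlap. The log2 difference was -1.02 (SE 0.12, limma adjusted p = 0.0074), and the adjusted p stayed between 0.0308 and 0.0447 with 1 array left out. When the arrays were scaled to 1 median the difference was -0.86 and did not pass (limma adjusted p = 0.167). In that fit every gene followed through the alternatives had the same SE, 0.285. Its p therefore does not measure the spread of *Ctsg* alone. *Gzmn*, granzyme N, read 4.95, 5.22 and 4.76 in control tubes and 4.95, 5.42 and 4.97 with PTH, with a log2 difference of 0.14 (SE 0.18, limma adjusted p = 0.795).

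Around the cluster, 20 further genes were taken, the 10 nearest named genes on each side. Of the 25 genes shown that are no members, 21 had a probe and 11 were tested, with a median log2 difference of 0.14. Besides *Ctsg*, *Nfatc4* passed. *Nfatc4*, an NFAT transcription factor gene, changed by 0.76 (SE 0.13, limma adjusted p = 0.03), a call that was lost with any array left out (limma adjusted p between 0.0802 and 0.129), under median scaling (0.105) or with the replicate block (0.091). The nearest tested gene on that side, *Khnyn*, differed by 0.06 (limma adjusted p = 0.881). On the other side, *Cenpj* differed by 0.46 (limma adjusted p = 0.325) and *Parp4* by 0.15 (0.652).

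**Figure D4:**
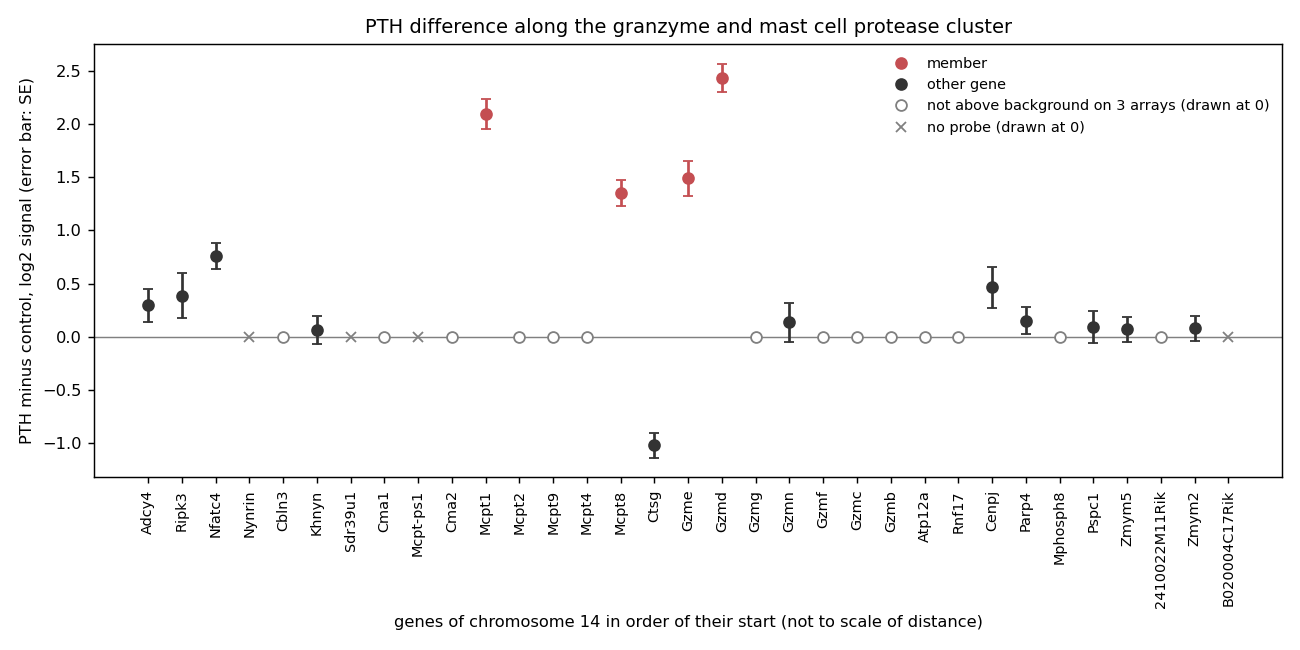
Log2 difference, PTH minus control, with its SE, for genes of chromosome 14 in the order of their start, with equal spacing. Members are red, and genes without 3 arrays above background or without a probe are drawn at 0. *Mcpt1* (whose control values lay at the background), *Mcpt8*, *Gzme* and *Gzmd* stand between 1.35 and 2.43, with untested genes and *Ctsg* at -1.02 between them.

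Other genes were examined in 9 lists of 112 genes, of which 110 had a probe and 50 were tested. The lists hold genes of granule proteases and cytokines, markers of blood cells and, as a check of the tissue, osteocyte markers. Of these 50 genes, 1 rose and 4 fell (limma, adjusted p under 0.05), or 10.0%, where 1.74% of all 11979 tested genes passed in either direction. Without the osteocyte markers 4 of 44 genes passed, or 9.09%. The lists were chosen with earlier results of these data known, so nothing is read from these shares. The median log2 difference of the 50 genes was -0.24, against 0.01 for all tested genes. With the arrays scaled to 1 median, 3 genes passed, *Il1rl1* and the osteocyte genes *Dmp1* and *Sost*, and none of the 4 that fell passed. In bulk RNA, fewer cells of a type and less RNA per cell cannot be told apart.

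The gene that rose was *Il1rl1*, which encodes ST2, the receptor subunit for IL-33 that mast cells and several other cells carry. Its normalized log2 signal was 8.12, 8.19 and 7.85 in control tubes and 10.00, 9.90 and 9.91 with PTH. The groups did not overlap, and the log2 difference was 1.88 (SE 0.14, limma adjusted p = 0.0007). It passed with every array left out in turn (limma adjusted p between 0.0054 and 0.00816). These values rest on 1 of the 2 probes of *Il1rl1*, as the other was not above background on 3 arrays. The other receptor subunit, *Il1rap*, differed by 0.22 (limma adjusted p = 0.488), and *Il33* and *Kitl*, the mast cell growth factor, were above background on no array. Of the 16 cytokine and receptor genes, 7 were tested, with a median log2 difference of 0.22. *Il18* differed by 0.64 (limma adjusted p = 0.154) and *Il2rg* by 0.56 (0.397), while *Tgfb1* differed by -0.37 (0.246) and *Il15* by -0.20 (0.609).

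The defining markers of mast cells were largely at the background. Of 18 mast cell markers, 10 were above background on no array, among them the IgE receptor chains *Fcer1a* and *Ms4a2*, carboxypeptidase A3 (*Cpa3*) and the tryptases *Tpsb2* and *Tpsab1*. Of the 10 other mast cell proteases, 8 were above background on no array, and *Ctsg* alone was tested. *Kit*, the receptor for stem cell factor, was above background on all arrays and read 7.44, 7.60 and 7.21 in control tubes and 7.05, 7.03 and 7.04 with PTH. Its log2 difference was -0.38 (SE 0.14, limma adjusted p = 0.257), with 1 of its 3 probes tested. *Hdc*, the histamine-forming enzyme, differed by -0.54 (limma adjusted p = 0.27) and *Gata2* by 0.07 (0.884). *Fcer1g*, a receptor chain shared by many myeloid cells, fell from 12.15 ± 0.09 to 11.11 ± 0.17 (SD, n = 3 each), a log2 difference of -1.04 (SE 0.14, limma adjusted p = 0.0129). It did not pass without control replicate 1 (limma adjusted p = 0.07), control replicate 2 (0.0589), PTH replicate 1 (0.0529) or PTH replicate 3 (0.063), nor under median scaling (0.14) or with the replicate block (0.0564). The summed linear signal of the 18 markers was between 5237 and 5903 on the control arrays and between 2865 and 3319 on the PTH arrays. Most of this sum and of its fall was *Fcer1g* alone, and only 5 of the 18 markers were tested.

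Of 12 basophil markers, 4 were tested. *Fcer1a*, *Ms4a2*, *Il4* and *Gata1* were above background on no array, and *Prss34* and *Cd200r3*, proteins typical of basophils, were not tested. *Ms4a3*, a gene of basophil and granulocyte precursors, changed by -0.89 by its brighter probe (SE 0.16, limma adjusted p = 0.0389). The mean over its 2 tested probes gave a smaller log2 difference, -0.58 (limma adjusted p = 0.0302). The brighter probe did not pass once any array was left out (limma adjusted p between 0.0585 and 0.149). Nor did it pass under median scaling (0.291), without a detection filter (0.0693) or with the replicate block (0.115). The chemokine gene *Ccl3* differed by -0.91 (SE 0.17, limma adjusted p = 0.0511) and *Il3ra* by -0.10 (0.859). The summed linear signal of the list was between 668 and 728 in control tubes and between 482 and 523 with PTH. *Ms4a3* and *Ccl3* were its brightest genes and made up most of this fall, and most genes of the list were not tested.

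Of 25 markers of NK and cytotoxic T cells, 15 were above background on no array, including *Ncr1*, *Klrk1*, *Cd3d*, *Cd3g*, *Cd8a*, *Eomes*, *Tbx21* and *Ifng*. Of the 5 tested 0 passed (limma), with 2 at an unadjusted p under 0.05. *Cd8b1*, listed as *Cd8b*, differed by -0.11 (limma adjusted p = 0.815), *Thy1* by -0.32 (0.478) and *Cd247*, a signalling chain of the T cell receptor listed as *Cd3z*, by -0.47 (0.203). The chemokine gene *Ccl5* differed by 0.68 (limma adjusted p = 0.168). The summed linear signal of the list was between 2406 and 2855 in control tubes and between 2296 and 2686 with PTH. In this sum *Cd8b1* was by far the brightest gene, while its partner *Cd8a* was above background on no array. Only 1 of the 3 probes of *Cd8b1* was tested, as the others were not above background on 3 arrays. The share of these cell types in the difference of the members was not tested.

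Of 7 tested genes that work with granzymes or resemble them 0 passed (limma), with 2 at an unadjusted p under 0.05. *Prf1*, perforin, had a normalized log2 signal of 9.42, 9.26 and 9.30 in control tubes and 9.59, 9.28 and 9.62 with PTH, and the groups overlapped. Its log2 difference was 0.17 (SE 0.14, limma adjusted p = 0.642), seen with 1 of its 2 probes, since the other was above background on no array. *Gzmk* and *Gzmm* were above background on no array. *Rab27a*, which guides granules to the membrane, differed by -0.75 (limma adjusted p = 0.0766) and *Lamp1*, a lysosomal membrane protein, by -0.34 (0.36). Of the 12 genes of protease processing and inhibition 7 were tested and 0 passed (limma), with 3 at an unadjusted p under 0.05. *Ctsc*, cathepsin C, differed by 0.48 (SE 0.12, limma adjusted p = 0.115), the inhibitor *Slpi* by 0.46 (0.168) and *Serpinb6a* by -0.21 (0.517). *Ctsh*, cathepsin H, differed by -0.49 (limma adjusted p = 0.144). The calls depended on the processing. *Rab27a* and *Ctsc* passed with an offset of 50, without background correction and with a detection p under 0.01 on all 6 arrays. *Ctsh* and *Slpi* passed without background correction, and *Ctsh* also with the mean over its probes. *Serpinb9*, the inhibitor of granzyme B, was above background on no array.

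The tissue check gave osteocyte genes on these arrays. Of 7 osteocyte markers, 6 were tested and *Fgf23* was above background on no array. *Mepe*, a matrix protein of osteocytes, changed by -1.02 (limma adjusted p = 0.0122), a call that was lost without control replicate 1 (0.0546), 2 (0.0589) or 3 (0.0564), without PTH replicate 2 (0.0634) and under median scaling (0.167). The other 5 did not pass the adjusted threshold, although all 6 had an unadjusted p under 0.05, and the median log2 difference of the 6 was -0.95. *Dmp1*, a regulator of mineralization, differed by -1.21 (limma adjusted p = 0.053), *Sost*, which encodes sclerostin, by -1.20 (0.146) and *Phex* by -0.88 (0.074). *Cd44* differed by -0.38 (limma adjusted p = 0.176), and *Pdpn*, listed as *Gp38*, by 0.70 (0.0544). General leukocyte genes were measured too, as all 8 of the list were tested, of which 0 passed (limma), with 1 at an unadjusted p under 0.05. *Laptm5* differed by 0.13 (limma adjusted p = 0.722), *Cd52* by -0.28 (0.377) and *Coro1a* by -0.59 (0.0964). Their mean normalized log2 signal in control tubes was 11.87, 10.95 and 9.71, while *Ptprc*, the dimmest of the list, had 5.27.

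**Figure D5:**
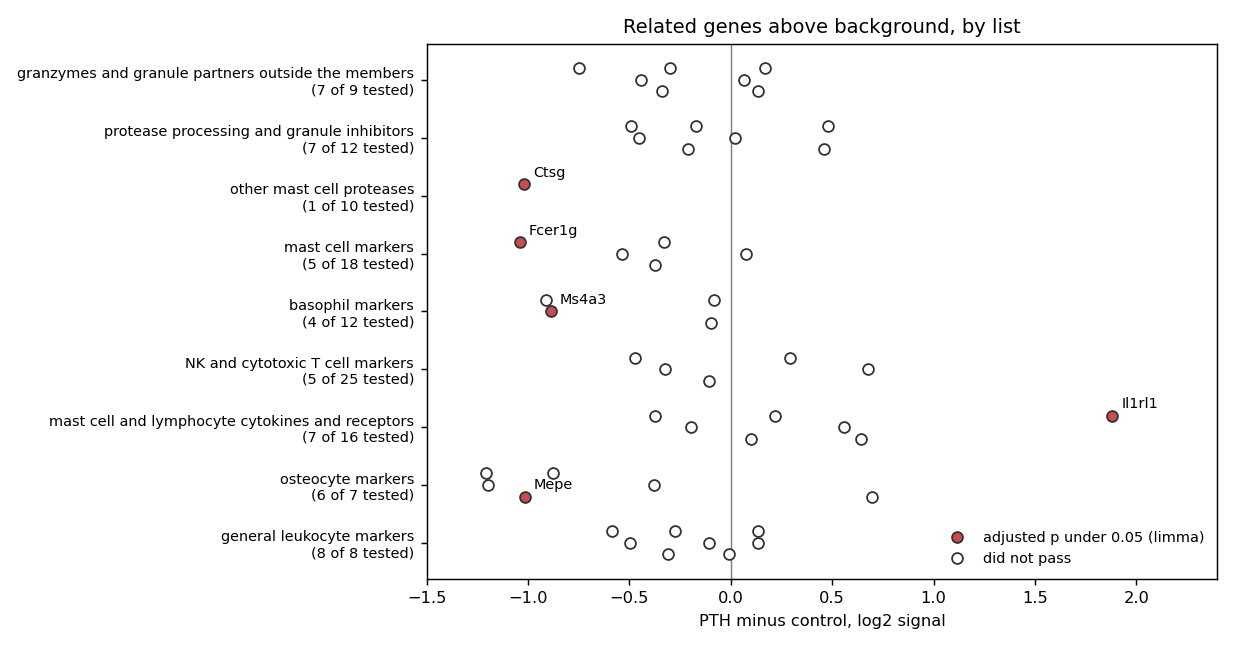
Log2 difference, PTH minus control, of the tested genes of 9 lists of related genes and cell type markers, with the number tested of those with a probe. Filled points passed an adjusted p under 0.05 (limma). *Il1rl1* stands at 1.88, and the 4 genes that passed below 0 lie between -1.04 and -0.89.

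The genes whose pattern over the 6 arrays was most like that of *Gzmd*, by Pearson's r on normalized log2 signal with the brightest probe of each gene, were *Chic1* (r = 0.997), *EG633640*, now *Tmem267* (0.996), *Ifi202b* (0.996), *Has1* (0.995) and *Il1rl1* (0.995). Their log2 differences were 0.61, 0.76, 1.65, 1.66 and 1.88. The closest to *Mcpt1* were *Uck2* (r = 0.995), *3110001P07Rik* (0.995), *Mbnl2* (0.993), *Il1rn* (0.993) and *Brd3* (0.993), with log2 differences of 0.78, 0.29, 0.48, 0.48 and 0.26. Such r values mostly express the split between the groups, which the arrays share, and *Il1rl1* was the gene on the lists above that came among them.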

How the data were processed

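RNA of 6 bone tube preparations (3 control, 3 PTH) was measured on Illumina arrays. The deposited table gives linear signal intensity per probe and array, which the authors exported from GenomeStudio without normalization or background subtraction. Beside each intensity the authors deposited a detection p-value against the negative controls. The genome build was not given in the sources used here. No column of per-sample values was left unused.

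Here the neqc steps of limma 3.58.1 (R 4.3.3) were applied, namely normexp background correction estimated from detection p-values, an offset of 16, quantile normalization and log2. Probes with a detection p under 0.05 on at least 3 arrays were fitted (lmFit, eBayes) and p-values adjusted over all of them by Benjamini-Hochberg. A listed gene was represented by its brightest tested probe. The fit was tested on simulated data. Array symbols were matched to RefSeq names and to older names held by 1 gene, and *Srgn* and *Gnly* were not matched. Promoters were aligned locally with biopython 1.88. Named genes were all members, listed or neighbouring genes that passed, up to 3 bright genes of each list, protease genes of the cluster, and the 5 genes most correlated with *Gzmd* and with *Mcpt1*. Members and lists were chosen with earlier results of these data known. Alternatives were other normalizations, background corrections and detection filters, the mean over probes, the replicate block and leaving out each array. Nothing says that preparations were independent beyond pooling different bones, so p-values measure the spread between these pools, and the number of arrays limits the precision. Under median scaling limma gave the same SE, 0.285, to every gene followed, so p-values there do not measure the spread of a single gene.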

Additional observations from a re-analysis of the deposited data

How the results depend on the processing

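The members were selected on this contrast, so their positive differences under each alternative in which they were tested are no independent check. Every PTH array of the 7 tested member probes lay above every control array under the 4 other normalizations and background corrections. *Mcpt1* and *Mcptl* were not tested when a detection p under 0.01 on all 6 arrays was asked for. The count of related genes that passed, 5 of 50, changed with the processing. It was 16 without background correction, 12 with an offset of 50, 12 with a detection p under 0.01 on all 6 arrays, 10 with the mean over the tested probes of a gene, and 3 with median scaling (1 of them shared with the 5), which moved the median of all tested probes to 0.11. The genes gained with an offset of 50 were *Rab27a*, *Ctsc*, *Ccl3*, *Dmp1*, *Phex*, *Pdpn* and *Coro1a*. The same genes were gained with the stricter detection filter and, with *Ctsh*, *Slpi*, *Sost* and *Cd44* besides, without background correction. With 1 array left out the count was between 2 and 3. It was 7 with cyclic loess and 4 without a detection filter. It is not known whether the replicate numbers pair the arrays. The deviations of same-numbered arrays correlated at 0.07, 0.06 and 0.27. The last, for replicate 3, was the highest of any control and PTH pair. Control replicates 1 and 2 correlated with PTH replicates 1 and 2 at 0.06 or 0.07, whatever the number. With the replicate block 4 genes passed, 3 of them shared with the 5. *Il1rl1* passed under every alternative run. Dim probes near the background limit the size of the differences of *Mcpt1* and *Mcptl*.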
